A study of Mus musculus with 22 samples.

Results

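The data described here are the transcript levels of 6 receptor genes of blood stem and precursor cells, of 47311 genes measured: Kit, Flt3, Epor, Tek, Il6ra and Il6st. The 6 genes were taken by name, as receptors or receptor chains for stem cell factor, FLT3 ligand, erythropoietin, angiopoietin and interleukin 6, and every transcript of each gene was summed. The libraries were 22 bulk RNA-seq libraries of cells sorted from the bone marrow of C57BL/6 mice whose Arid1a gene, which encodes a subunit of the SWI/SNF chromatin remodeling complex, carried floxed alleles around exon 9. Mice with the Mx1-Cre transgene (Arid1a f/f;Mx1-Cre+, called KO) were compared with littermates of the same sex without it (Arid1a f/f;Mx1-Cre-, called WT). Mx1-Cre is switched on by interferon, so mice of both genotypes, 8 to 14 weeks old, received poly(I:C), an inducer of interferon, and were analyzed 4 to 5 weeks after the last injection. The Mx1 promoter is not restricted to blood cells, and the WT mice carried the floxed alleles and the poly(I:C) treatment but no Cre. Long-term hematopoietic stem cells (LT-HSC) came from 2 WT and 2 KO mice. Common myeloid precursors (CMP), granulocyte-monocyte precursors (GMP) and megakaryocyte-erythroid precursors (MEP) came from 3 other WT and 3 other KO mice, and the 3 sorts of a mouse share its number.

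KIT, FLT3 and TEK are receptor tyrosine kinases: their ligands bring receptor chains together at the cell surface, and the chains then phosphorylate each other and recruit adaptors and kinases inside the cell. The erythropoietin receptor has no kinase of its own and works through the attached kinase JAK2, which activates the transcription factor STAT5. Interleukin 6 binds the alpha chain encoded by Il6ra, and the signal enters the cell through gp130, encoded by Il6st, which interleukin 6 shares with leukemia inhibitory factor, oncostatin M, interleukin 11 and related cytokines and which acts through JAK kinases and STAT3. KIT marks stem cells, precursors and mast cells, FLT3 marks early multipotent and lymphoid or dendritic precursors, EPOR is the receptor of red cell precursors, TEK (also called TIE2) is known from endothelial cells and stem cells, and the interleukin 6 receptor is known from myeloid and lymphoid cells.

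In the GRCm38 annotation Kit (chr5:75574916-75656722) and Tek (chr4:94739289-94874976) lie on the plus strand, as does Il6st (chr13:112464070-112510086), and Flt3 (chr5:147330741-147400489), Epor (chr9:21958897-21963506) and Il6ra (chr3:89864059-89913196) on the minus strand. Every value below is a sum over the annotated transcripts of the gene.

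The sort gates used some of these proteins. All 4 populations were sorted as KIT-positive, and LT-HSC also as FLT3-negative, so the levels of Kit and Flt3 describe cells that were in part chosen by these receptors. CMP, GMP and MEP were told apart by CD34 and FcγRII/III, and the paper reports less surface CD34 on KO CMP and GMP. Whether these gates took the same cells in both genotypes was not tested. Every KO against WT comparison of the precursors carries this limit. LT-HSC libraries were made with SMART-Seq v4, which amplifies full-length cDNA, and the precursor libraries with TruSeq, so stem cells and precursors cannot be told apart from kits and mice, and no test was made between them. The libraries held 40804031 to 65930737 estimated counts on genes. Levels are in TPM, a level per length of transcript, scaled to the same total in every library. The gate gene Cd34 was at 272 to 291 TPM in WT GMP and 140 to 221 TPM in KO GMP. In CMP it was at 423 to 455 TPM in WT and 386 to 454 TPM in KO, with overlap. Granulocyte-monocyte and erythroid markers fitted the labels of the precursors. The 6 granulocyte-monocyte precursor genes summed to 31100 to 36600 TPM in WT GMP and to 26.4 to 60.5 TPM in WT MEP. The 6 erythroid genes summed to 4200 to 5600 TPM in WT MEP and to 30.3 to 34.4 TPM in WT GMP. Megakaryocyte markers went against the MEP label. Their 6 genes summed to 24.6 to 45.1 TPM in WT MEP, 742 to 1090 TPM in WT CMP and 105 to 224 TPM in WT GMP. All 6 were called lower in WT MEP than in WT CMP. LT-HSC held the highest sum of stem cell markers, with 443 to 578 TPM in WT against 51.8 to 68.6 TPM in WT CMP. They also held erythroid markers at 1280 to 2680 TPM and mature neutrophil and monocyte markers at 362 to 2100 TPM in WT, and the WT library S245 had 10 counts or more on 27191 genes, against 18504 to 22407 in the other LT-HSC libraries. Arid1a itself was lower in KO in every population, with a log2 fold change of -1.14 (adjusted p = 0.42) for LT-HSC, -0.22 (adjusted p = 0.028) for CMP, -0.40 (adjusted p = 0.025) for GMP and -0.14 (adjusted p = 0.084) for MEP, by edgeR's quasi-likelihood test. Summed counts of the gene cannot show the loss of a single exon.

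**Figure D1:**
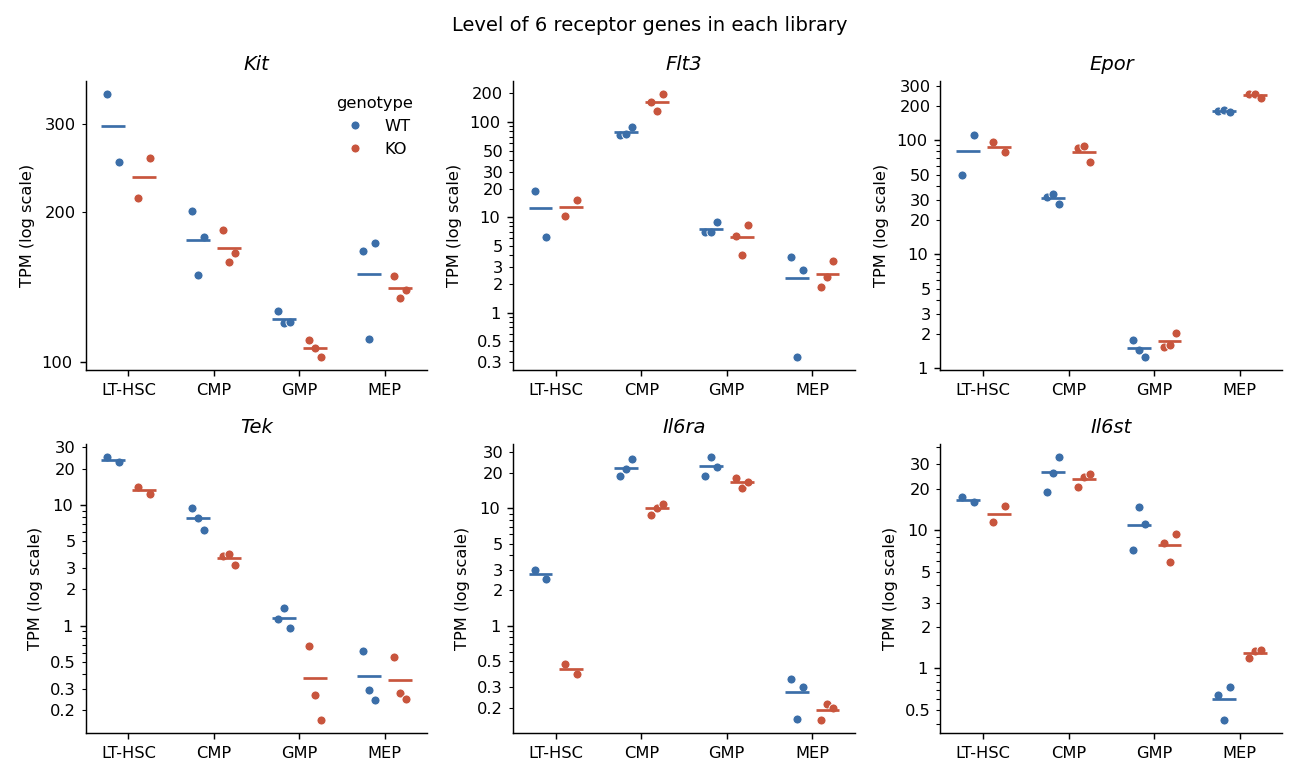
Level of each receptor gene in each of the 22 libraries, in TPM on a log axis, by population and genotype; points are libraries and bars are group means (n = 2 for LT-HSC, n = 3 for the other groups). Epor and Il6ra took opposite places, with Epor at 1.49 TPM and Il6ra at 23.0 TPM in WT GMP and Epor at 180.2 TPM and Il6ra at 0.271 TPM in WT MEP.

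Kit, the receptor for stem cell factor, was the gene among the 6 that varied least. Its level in WT mice was 345 and 252 TPM in LT-HSC, 200.7, 149 and 178 TPM in CMP, 126.5, 119.6 and 120.2 TPM in GMP and 167, 111.5 and 173 TPM in MEP. In KO mice it was 213 and 257 TPM in LT-HSC, 184, 159 and 166 TPM in CMP, 111, 107 and 102 TPM in GMP and 149, 134 and 139.8 TPM in MEP. The ranges of the genotypes overlapped in each population except GMP, where all 3 KO libraries lay just below the WT libraries in TPM but not in CPM. CPM are counts scaled by the library size after TMM normalization, without regard to transcript length. WT and KO did not differ in the test in any population, with log2 fold changes of -0.05 ± 0.40 (SE), -0.13 ± 0.11, -0.02 ± 0.07 and -0.09 ± 0.15 and adjusted p of 0.98, 0.52, 0.87 and 0.73 for LT-HSC, CMP, GMP and MEP (edgeR). Leaving out WT replicate 305 gave an adjusted p of 0.064 in CMP and of 0.021 in MEP, with log2 fold changes of -0.25 and -0.26.

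The reads of Kit came from 2 coding transcripts, and these carry the best known variation of the receptor: a short stretch in the extracellular part that some KIT chains have and others lack. The annotated coding sequences of Kit-201 and Kit-204 were identical apart from 12 bases at the end of exon 9 (GRCm38 chr5:75639147-75639158, plus strand). The whole transcripts, of 5214 bases for Kit-201 and 5241 for Kit-204, also differ outside the coding sequence. Their shares of the reads thus need not rest on the 12 bases alone. The 12 bases are shown with 9 bases on each side, to mark what separates the coding sequences, with the added bases in capitals.
Kit-201: catttaaagGTAACAACAAAGagcaaatcc
Kit-204: catttaaagagcaaatcc

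Kit-201, the form with the longer coding sequence, held 41.6% ± 4.37 (SD, n = 2) of the gene's estimated counts in WT LT-HSC. It held 41.7% ± 1.66 (n = 3) in WT CMP, 43.2% ± 2.64 in WT GMP and 42.1% ± 4.45 in WT MEP. Kit-204, which lacks the 12 bases, held 56.9% ± 4.82, 53.8% ± 4.30, 54.3% ± 3.46 and 54.4% ± 4.73. The KO groups lay at 39.3% ± 1.34, 41.7% ± 2.10, 44.9% ± 1.73 and 44.5% ± 1.80 for Kit-201. All 8 groups thus held both forms at similar shares, within the spread of the libraries. The remaining reads went to transcripts with retained introns, 354 to 3175 bases long. With the coding transcripts alone the mean level in WT CMP was 147 TPM in place of 176 TPM.

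Flt3, the receptor for FLT3 ligand, was highest in CMP and rose there in KO. The WT CMP libraries held 72.5, 73.9 and 88.8 TPM and the KO CMP libraries 160.3, 129 and 195 TPM. Every KO library lay above every WT library, and the KO mean was 2.06 times the WT mean. The log2 fold change was 0.94 ± 0.15 (adjusted p = 0.0028, edgeR). With all 18 precursor libraries in 1 fit, whose shared spread takes in the scattered MEP values, it was 0.95 with an adjusted p of 0.14. Since these are bulk samples, more cells with Flt3 and more Flt3 per cell cannot be told apart here, nor fewer cells and less RNA per cell in the results that follow. A list of early lymphoid and dendritic markers had 3 of 6 genes called higher in KO CMP. Its summed level was 34.5 to 81.7 TPM in WT CMP and 62.5 to 175 TPM in KO CMP, and these ranges overlapped. The highest gene of the list was Dntt, the terminal transferase of early lymphoid cells. Dntt was at 30.3 to 76.2 TPM in WT and 50.6 to 146 TPM in KO, which also overlapped. The part of such cells in the Flt3 difference was not tested.

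Elsewhere Flt3 was low. LT-HSC, sorted as FLT3-negative, held 18.9 and 6.22 TPM in WT and 10.2 and 15.1 TPM in KO. GMP held 6.95, 6.98 and 8.81 TPM in WT and 6.33, 4.05 and 8.32 TPM in KO. MEP held 3.82, 0.342 and 2.77 TPM in WT and 1.84, 2.35 and 3.52 TPM in KO. The genotypes overlapped in all 3 populations, and the WT MEP library of replicate 305 stood far below the others, with 40 estimated counts against 321 and 588. The log2 fold changes were 0.34 ± 0.42, -0.14 ± 0.22 and 0.13 ± 0.66, and none was called (adjusted p of 0.88, 0.71 and 0.92).

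Epor, the erythropoietin receptor, was highest in MEP and rose in KO in CMP and MEP. In CMP the WT libraries held 32.0, 33.6 and 27.9 TPM and the KO libraries 86.2, 88.2 and 64.5 TPM, with no overlap and a KO mean 2.56 times the WT mean. In MEP the WT libraries held 180.0, 185 and 175 TPM and the KO libraries 253.8, 253.0 and 237 TPM, again with no overlap, and the KO mean was 1.38 times the WT mean. The log2 fold changes were 1.25 ± 0.12 in CMP (adjusted p = 0.00025) and 0.43 ± 0.04 in MEP (adjusted p = 0.00027). The rise in CMP was the larger: the KO effect in MEP was lower than that in CMP by 0.82 ± 0.14 on the log2 scale (adjusted p = 0.0023, edgeR interaction with mouse as a block).

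The 2 populations differed in the erythroid markers beside this rise. In CMP the summed level of the 6 erythroid markers was 845 to 901 TPM in WT and 951 to 1120 TPM in KO, with 5 of 6 genes called higher. In MEP it was 4200 to 5600 TPM in WT and 2460 to 3170 TPM in KO, where Car1, the carbonic anhydrase of early red cell precursors, was the highest of the list at means of 4500 and 2170 TPM. The sum there follows Car1, while 3 genes of the list were called higher and 1 lower, and Klf1 was at means of 353 TPM in WT and 465 TPM in KO. The share of erythroid cells in these libraries was not tested.

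In GMP, Epor was near the bottom of its range, with 1.78, 1.45 and 1.25 TPM in WT and 1.52, 1.59 and 2.04 TPM in KO. The genotypes overlapped and the log2 fold change was 0.36 ± 0.22 (adjusted p = 0.28). In LT-HSC the WT libraries lay on both sides of the KO libraries, with 49.9 TPM in S245 and 112 TPM in S269 against 96.2 and 79.3 TPM in KO, so that the sign of the difference hung on which WT library was used. The log2 fold change was 0.28 ± 0.41 with all libraries, -0.25 without S245 and 1.16 without S269. The last 2 fits hold 1 WT library, so they cannot show the spread between WT mice.

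Tek, the angiopoietin receptor, followed a falling order from stem cells to precursors and was lower in KO in CMP and GMP. LT-HSC held 25.0 and 22.5 TPM in WT and 14.03 and 12.4 TPM in KO. CMP held 9.39, 7.78 and 6.24 TPM in WT and 3.77, 3.97 and 3.17 TPM in KO. GMP held 1.13, 1.40 and 0.964 TPM in WT and 0.675, 0.268 and 0.167 TPM in KO. The genotypes did not overlap in any of these 3 populations. In MEP, where the gene was near its floor, WT libraries held 0.621, 0.296 and 0.242 TPM and KO libraries 0.547, 0.276 and 0.246 TPM, and the ranges overlapped.

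The log2 fold change of Tek was -1.21 ± 0.14 in CMP (adjusted p = 0.00070) and -2.47 ± 0.23 in GMP (adjusted p = 8.8e-05, edgeR). In LT-HSC it was -0.43 ± 0.27 (adjusted p = 0.88) and in MEP -0.44 ± 0.38 (adjusted p = 0.47). The change in GMP rests on 159 to 208 estimated counts in WT and 25 to 37 in KO. Part of the KO level in TPM came from Tek-204, a noncoding transcript of 361 bases that took 5.87% ± 9.17 (SD, n = 3) of the KO counts. With the coding transcripts alone the mean was 1.10 TPM in WT GMP and 0.166 TPM in KO GMP, and with an offset for transcript length over all transcripts the log2 fold change was -1.74.

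Markers of other cell types also differed between the genotypes in GMP and CMP, and not all went in the direction of Tek. In GMP the summed mast cell and basophil markers were 780 to 1250 TPM in WT and 127 to 176 TPM in KO, with 6 of 6 genes called lower, and the summed endothelial markers were 73.9 to 83.5 TPM in WT and 48.6 to 51.4 TPM in KO, with 5 of 5 tested genes called lower. In CMP the mast cell and basophil markers were 107 to 274 TPM in WT and 76.6 to 84 TPM in KO, with 4 of 6 called lower, and the endothelial markers 91.5 to 116 TPM and 81.7 to 91.4 TPM, with 3 of 5 called lower. The stem cell markers were 13.6 to 18.4 TPM in WT GMP and 11.0 to 11.7 TPM in KO GMP, with 1 of 6 called higher and 4 lower. In CMP they were 51.8 to 68.6 TPM in WT and 99 to 111 TPM in KO, with 3 of 6 called higher and 2 lower. The megakaryocyte markers were 742 to 1090 TPM in WT CMP and 563 to 578 TPM in KO CMP, with 1 of 6 called higher and 5 lower, and 105 to 224 TPM and 71.3 to 91.1 TPM in GMP, with 1 called higher and 2 lower. Pecam1, which precursors also express, was the highest endothelial gene, and Cdh5, an endothelial cadherin, was at a mean of 0.0131 TPM in WT GMP and 0.0435 TPM in WT CMP. The part of any of these cell types in the fall of Tek was not tested.

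Il6ra, the alpha chain that binds interleukin 6, was highest in GMP and CMP and lower in KO in both. The WT CMP libraries held 19.0, 21.6 and 26.3 TPM and the KO CMP libraries 8.85, 10.1 and 11.0 TPM. The WT GMP libraries held 18.8, 27.5 and 22.7 TPM and the KO GMP libraries 18.04, 15.0 and 16.9 TPM. The CMP groups were far apart, while in GMP the lowest WT library and the highest KO library nearly met. The log2 fold change was -1.25 ± 0.14 in CMP (adjusted p = 0.00056) and -0.36 ± 0.12 in GMP (adjusted p = 0.049). The value in GMP lost its call without WT replicate 305 (-0.25, adjusted p = 0.11), WT replicate 309 (-0.37, 0.12), KO replicate 304 (-0.32, 0.15) or KO replicate 308 (-0.37, 0.12) and with all 18 precursor libraries in 1 fit (-0.35, 0.14).

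Beside the lower Il6ra, granulocyte and monocyte markers differed between the genotypes in both populations. In CMP the granulocyte-monocyte precursor list was 3950 to 4800 TPM in WT and 1750 to 2710 TPM in KO, with 3 of 6 genes called lower, and the mature neutrophil and monocyte list 268 to 369 TPM and 103 to 145 TPM, with 4 of 6 called lower. In GMP the precursor list was higher in KO, at 41500 to 46800 TPM, with 6 of 6 genes called higher, and the mature list was 1290 to 1600 TPM in WT and 1270 to 1890 TPM in KO, with 1 of 6 called higher and 3 lower. The part of such cells in the Il6ra differences was not tested.

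In LT-HSC, Il6ra held 2.96 and 2.50 TPM in WT and 0.471 and 0.387 TPM in KO, which is the widest gap between genotypes among the 6 genes there, at a WT mean 6.36 times the KO mean. The estimated counts behind it were 525 and 392 in WT and 184 and 76 in KO. In CPM, which take no account of transcript length, the means were 9.27 in WT and 2.21 in KO. The gap in TPM also depends on the share of counts given to the shorter transcript, Il6ra-201. That share ranged from 35.7% to 76.2% in WT and from 12.4% to 58.6% in KO. The groups did not overlap, but the log2 fold change of -2.07 ± 0.71 did not pass the test over all genes (adjusted p = 0.81, unadjusted p = 0.014, edgeR). Mature neutrophil and monocyte markers, which were 362 to 2100 TPM in WT LT-HSC and 300 to 357 TPM in KO, had 0 of 6 genes called there, and S100a8 was at 135 and 863 TPM in the WT libraries against 137 and 162 TPM in KO. Their part was not tested. In MEP, Il6ra was at 0.353, 0.162 and 0.299 TPM in WT and 0.158, 0.217 and 0.200 TPM in KO, with overlapping groups.

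Il6st, which encodes the shared signaling chain gp130, rose in KO in MEP alone among the calls. The WT MEP libraries held 0.648, 0.426 and 0.732 TPM and the KO MEP libraries 1.20, 1.34 and 1.35 TPM, with no overlap. The log2 fold change was 1.40 ± 0.22 (adjusted p = 0.0029, edgeR), on 82 to 189 estimated counts in WT and 302 to 411 in KO, and it was 1.09 with an offset for transcript length. The level stayed the lowest of the 4 populations in both genotypes. Megakaryocyte markers moved with it, from 24.6 to 45.1 TPM in WT MEP to 69.1 to 93.4 TPM in KO MEP with 3 of 6 genes called higher, as did stem cell markers, from 68.5 to 71.4 TPM to 115 to 127 TPM with 3 of 5 tested genes called higher and Mllt3 as the highest, and their part was not tested.

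The other populations held more Il6st. CMP held 18.9, 25.9 and 34.0 TPM in WT and 20.7, 24.2 and 25.5 TPM in KO, GMP 7.24, 14.7 and 11.0 TPM in WT and 8.05, 5.92 and 9.45 TPM in KO, and LT-HSC 17.3 and 15.9 TPM in WT and 11.4 and 15.0 TPM in KO. The CMP and GMP groups overlapped, and the LT-HSC groups did not overlap in TPM but did in CPM. The log2 fold changes were -0.27 ± 0.19, -0.40 ± 0.24 and 0.09 ± 0.33 (adjusted p of 0.42, 0.27 and 0.96), and the call was gained in CMP and in GMP without WT replicate 300 (-0.47, adjusted p = 0.042, and -0.65, adjusted p = 0.030).

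**Figure D2:**
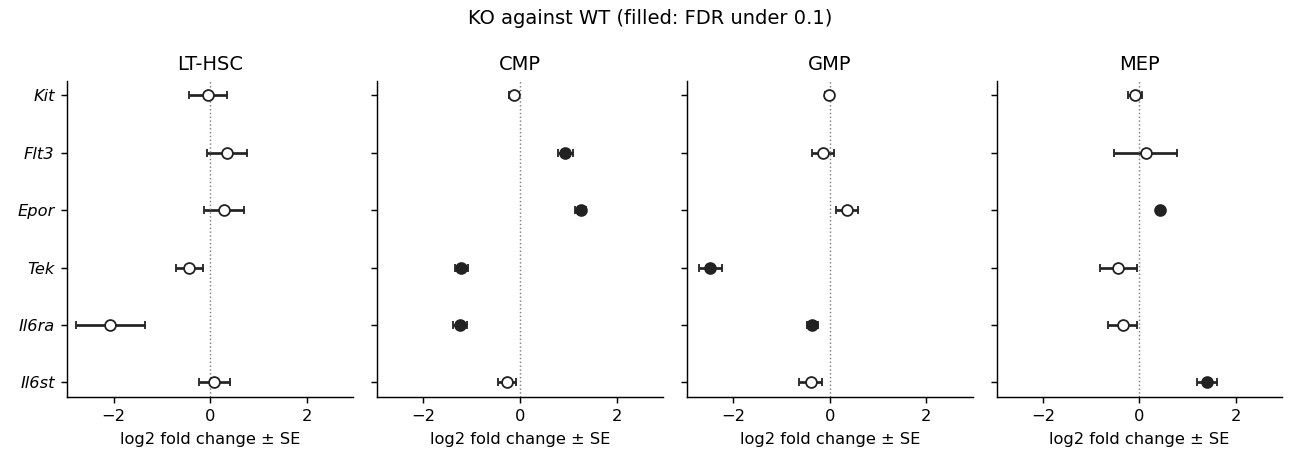
Log2 fold change of KO against WT for each receptor gene in each population, with its standard error as the bar; filled points had an adjusted p under 0.1. In CMP the points stood apart in both directions, with Epor at 1.25 and Il6ra at -1.25, and the point of Kit lay close to 0 in all 4 populations.

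By population, 4 of the 6 genes were called in CMP at an adjusted p under 0.1, Flt3 and Epor higher and Tek and Il6ra lower, where 23.4% of all genes tested were called. In GMP 2 of 6 were called, Tek and Il6ra, both lower, against 33.9% of all genes. In MEP 2 of 6 were called, Epor and Il6st, both higher, against 29.4% of all genes. In LT-HSC 0 of 6 were called here by edgeR or DESeq2, and 1, Il6ra, had an unadjusted p under 0.05 (edgeR). Of all 22733 genes tested in LT-HSC 0.0792% were called by edgeR, and 1180 had an unadjusted p under 0.05. The paper, which used DESeq2, names Il6ra among the genes dysregulated in KO LT-HSC and also measured it by quantitative PCR. The result here thus departs from that of the paper for this gene. The shares of GMP and MEP are close to those of all genes. The genotypes did not overlap in CPM for 4, 2, 2 and 2 of the 6 genes in CMP, GMP, MEP and LT-HSC, against 34.0%, 42.4%, 38.8% and 36.3% of all genes. Each of Epor, Tek and Il6ra was called in 2 populations, and within a gene the calls had the same direction. The share of all genes with such calls in 2 populations was not determined, so this count has no background to be read against.

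Whether the KO effect differed between the precursor populations was tested in 1 fit of the 18 libraries, with the mouse as a block. Between GMP and CMP it differed for 3 of 6 genes, against 21.0% of all genes. The KO effect in GMP less that in CMP was -0.88 ± 0.19 for Epor (adjusted p = 0.0063), which rose in CMP, -1.26 ± 0.29 for Tek (adjusted p = 0.0090), which fell further in GMP, and 0.90 ± 0.22 for Il6ra (adjusted p = 0.012), which fell further in CMP. The Tek difference rests on how transcripts are weighed, being -0.62 with an adjusted p of 0.40 under an offset for transcript length. Between MEP and CMP the effect differed for 2 of 6 genes, Epor as above and Il6st at 1.57 ± 0.35 (adjusted p = 0.011), against 13.1% of all genes. Between MEP and GMP it differed for 2 of 6, Tek at 2.06 ± 0.34 (adjusted p = 0.00064) and Il6st at 1.69 ± 0.35 (adjusted p = 0.0035), against 26.8%. For Flt3 the KO effect in GMP was lower than that in CMP by 1.09 ± 0.49 with an adjusted p of 0.17, so the rise in CMP was not shown to be particular to it. Without mouse 305, whose MEP library was the low one, this value was -1.16 with an adjusted p of 0.0067, and the same difference for MEP was -1.35 with an adjusted p of 0.0057.

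The same fit gave the differences between precursor populations of the WT mice. GMP differed from CMP for 5 of 6 genes, all lower in GMP, against 45.2% of all genes: Epor by -4.22 ± 0.13, Flt3 by -3.23 ± 0.37, Tek by -2.67 ± 0.19, Il6st by -1.12 ± 0.21 and Kit by -0.34 ± 0.08 on the log2 scale. Il6ra, at 0.18 ± 0.15, did not pass the test (adjusted p = 0.39). MEP differed from CMP for 5 of 6 genes, against 70.6%: Epor was higher by 2.86 ± 0.11, and Il6ra, Il6st, Flt3 and Tek were lower, by -5.42 ± 0.21, -5.36 ± 0.27, -4.86 ± 0.42 and -4.04 ± 0.21. Kit did not pass the test there, at 0.01 ± 0.08 (adjusted p = 0.92). MEP differed from GMP for all 6 genes, against 70.7%, with Epor at 7.08 ± 0.14 and Il6ra at -5.60 ± 0.21 at the ends. The calls had adjusted p of 0.0048 or less.

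**Figure D3:**
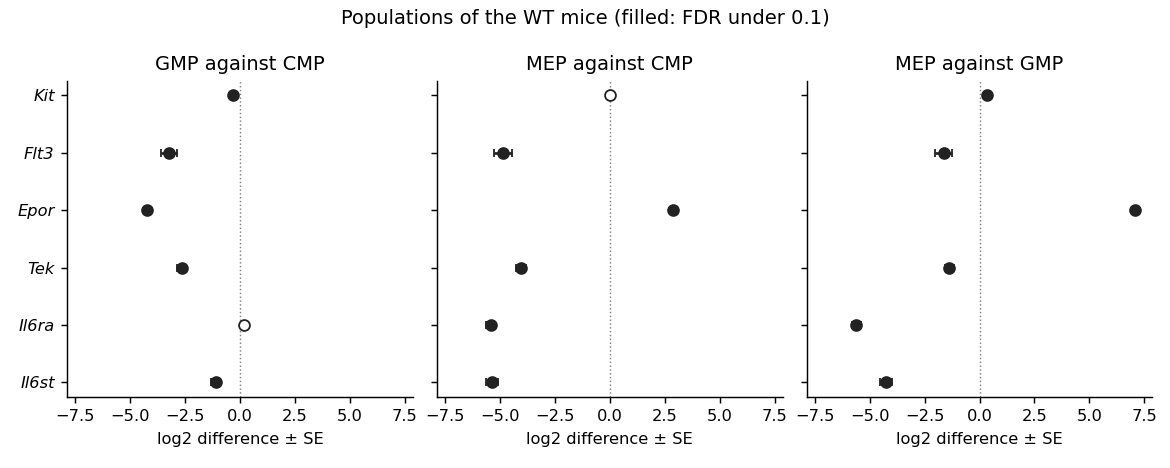
Log2 difference between precursor populations of the 3 WT mice, with its standard error as the bar; filled points had an adjusted p under 0.1. Epor runs from -4.22 (GMP against CMP) to 7.08 (MEP against GMP), while Kit stays between -0.34 and 0.35.

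In the order of levels over all 8 groups, in TPM, Flt3 ran from KO CMP (161 TPM) and WT CMP (78.4 TPM) down to LT-HSC and GMP, whose ranges overlapped, and MEP. Epor ran from KO MEP (248 TPM) over WT MEP (180.2 TPM) to LT-HSC and KO CMP, whose ranges overlapped, then WT CMP (31.1 TPM) and GMP. Tek ran from WT LT-HSC (23.8 TPM) over KO LT-HSC (13.2 TPM), WT CMP (7.80 TPM), KO CMP (3.64 TPM) and WT GMP (1.16 TPM), each apart from the next, to KO GMP and MEP, which overlapped. Il6ra ran from WT GMP (23.0 TPM) and WT CMP (22.3 TPM), which overlapped, to KO GMP (16.6 TPM), KO CMP (9.99 TPM), WT LT-HSC (2.73 TPM), KO LT-HSC (0.429 TPM) and MEP. For Tek and Il6ra the KO groups of CMP and GMP lay below the WT groups of the same population. The KO CMP group of Epor overlapped LT-HSC in TPM. In these orders the place of LT-HSC among the precursors cannot be told apart from library kit and mice.

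The interleukin 6 chains also differed in which transcripts received the reads. Il6ra-201, the shorter transcript of 3343 bases, held 42.0% ± 2.31 (SD, n = 3) of the counts in WT CMP, 41.4% ± 4.20 in KO CMP, 43.8% ± 0.752 in WT GMP and 47.1% ± 0.239 in KO GMP, and the longer Il6ra-202 of 8639 bases held the rest. In MEP, on 42 to 114 counts a library, Il6ra-202 held 91.7% ± 2.87 in WT and 99.3% ± 1.19 in KO. For Il6st, the transcript of 8678 bases, Il6st-203, held 64.5% ± 4.16 in WT CMP, 63.1% ± 2.92 in WT GMP and 51.9% ± 7.77 in WT MEP but 15.6% ± 10.8 (n = 2) in WT LT-HSC, where Il6st-208, a transcript of 2985 bases, held 13.0% ± 0.814 against 0.0617% ± 0.107 in WT CMP. Population and library kit cannot be told apart in the last comparison.

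**Figure D4:**
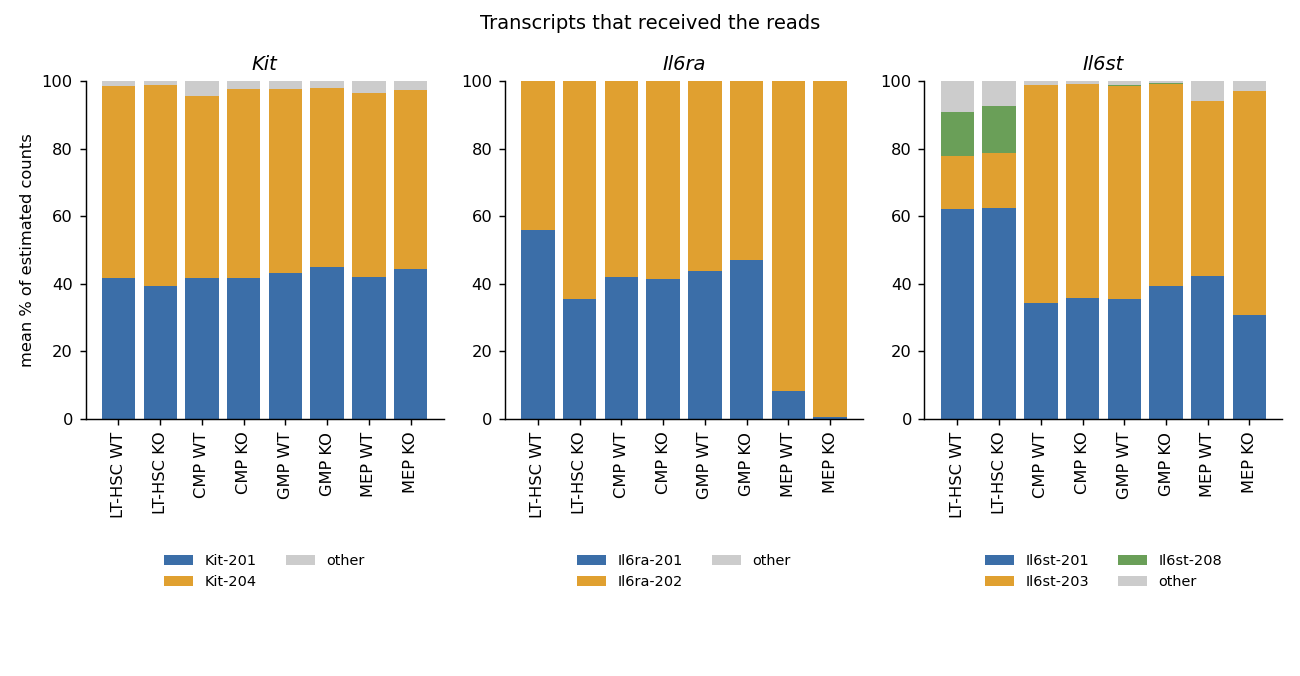
Mean percent of the estimated counts of Kit, Il6ra and Il6st that went to each transcript, by group (n = 2 for LT-HSC, n = 3 for the others); bars add up to 100. The 2 coding Kit transcripts keep similar shares in all groups, Il6ra-202 takes nearly all counts in MEP, and Il6st-203 is the larger share in the precursors and the smaller in LT-HSC.

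Start sites were searched for 3 genes, Epor, Tek and Il6ra, since each was called in 2 populations, and for the other receptors beside them. The window was 250 bases before to 50 after the start (RefSeq, GRCm38.p6, read along the gene). The motifs, searched on both strands, were GATAA (GATA factors), TTCNNNGAA (STAT factors), TGTGGT (RUNX factors) and CCGGAA (ETS factors). The 250 bases before the start are shown for Epor and Il6ra, and for Tek, whose match lay after the start, that match with 8 bases on each side, with matches in capitals.
Epor (chr9:21963577-21963826, minus strand): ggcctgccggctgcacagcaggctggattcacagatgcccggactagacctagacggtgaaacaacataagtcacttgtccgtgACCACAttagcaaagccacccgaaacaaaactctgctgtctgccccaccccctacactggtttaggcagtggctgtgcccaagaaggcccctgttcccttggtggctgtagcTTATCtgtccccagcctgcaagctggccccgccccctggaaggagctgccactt
Tek (chr4:94739318-94739338, plus strand): gagcagaaGATAAgccttgga
Il6ra (chr3:89913197-89913446, minus strand): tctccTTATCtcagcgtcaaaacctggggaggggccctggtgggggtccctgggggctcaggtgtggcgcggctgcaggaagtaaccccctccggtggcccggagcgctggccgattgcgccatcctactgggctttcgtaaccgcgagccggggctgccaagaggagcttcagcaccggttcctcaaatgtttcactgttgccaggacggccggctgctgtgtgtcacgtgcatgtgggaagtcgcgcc

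Each of these 3 windows held 1 match to GATAA, whose leftmost base was at position -54 in Epor, 37 in Tek and -245 in Il6ra, counted from 0 at the first transcribed base, and 25.4% of all 32851 promoters in the table held one. Epor also held 1 match to TGTGGT, which 16.8% of promoters hold. The windows of Kit and Flt3 held no match to any of the 4 motifs, and that of Il6st held 2 matches to CCGGAA, which 14.9% of promoters hold. No member window matched TTCNNNGAA, found in 8.30% of promoters.

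Genes known to act below or beside these receptors are given by lists, whose counts can be read against the 23.4%, 33.9% and 29.4% of all genes called in CMP, GMP and MEP. The lists were not tested as sets. Of 13 genes that STAT3 and STAT5 are known to switch on, 7 were called in CMP, 6 higher and 1 lower, with a median log2 fold change of 0.66 over the list against 0.00 over all genes tested. Cish, a feedback inhibitor of cytokine receptors, rose by 0.82 ± 0.13 (adjusted p = 0.0028) and Tfrc, the transferrin receptor, by 0.81 ± 0.14 (adjusted p = 0.0037) in CMP. In GMP 7 of 13 were called, 6 higher and 1 lower, with a median of 0.43 against -0.01. Bcl2l1, an inhibitor of cell death, rose by 0.87 ± 0.09 there (adjusted p = 0.00011) and Bcl3, a partner of NF-kappaB, by 2.13 ± 0.22 (adjusted p = 0.00015). In MEP 6 of 12 tested were called, 4 higher and 2 lower, with a median of 0.36 against 0.00, and the named genes were Bcl2l1 at 1.33 ± 0.15 (adjusted p = 0.00064), Pim1, a kinase that promotes survival, at 0.99 ± 0.16 (adjusted p = 0.0031) and Junb at -1.16 ± 0.14 (adjusted p = 0.00085). Osm was the gene of the list called lower in all 3 populations. In LT-HSC 0 of 13 were called.

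**Figure D5:**
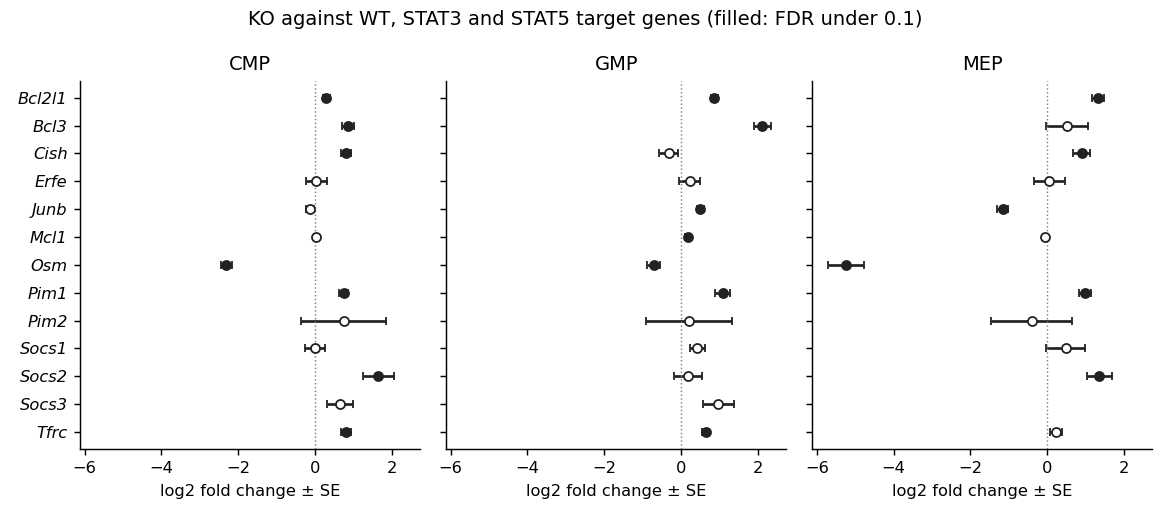
Log2 fold change of KO against WT for 13 genes known as targets of STAT3 and STAT5 in the 3 precursor populations, with the standard error as the bar; filled points had an adjusted p under 0.1. Most filled points lie above 0, and Osm lies below 0 in each population, at -2.30, -0.71 and -5.24.

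Osm encodes oncostatin M, which signals through gp130, and so counts among the ligands as well. It fell in KO from 5.87 to 6.73 TPM in WT to 1.28 to 1.40 TPM in CMP (-2.30 ± 0.13, adjusted p = 3.7e-05), from 3.70 to 4.07 TPM to 1.88 to 2.51 TPM in GMP (-0.71 ± 0.16, adjusted p = 0.011) and from 4.22 to 5.88 TPM to 0.0742 to 0.253 TPM in MEP (-5.24 ± 0.48, adjusted p = 0.00022), where the KO libraries held 3 to 21 counts. Of the 15 ligand genes, 1 was called higher and 3 lower of 12 tested in CMP, 1 and 5 of 10 in GMP and 1 and 3 of 9 in MEP. Flt3l, the ligand of FLT3, rose together with its receptor in CMP, from 15.2 to 20.2 TPM to 25.0 to 30.2 TPM (0.56 ± 0.12, adjusted p = 0.011), and rose in MEP (0.28 ± 0.06, adjusted p = 0.017). In GMP Ebi3, a subunit shared by interleukins 27 and 35, rose by 0.96 ± 0.14 (adjusted p = 0.00095). Il6 itself changed by -2.71 ± 0.36 in GMP (adjusted p = 0.00060), on 59 to 93 counts in WT and 8 to 14 in KO, and Clcf1, another gp130 ligand, by -1.45 ± 0.25 (adjusted p = 0.0023). In CMP Il27 changed by -3.13 ± 0.57 (adjusted p = 0.0059), on 15 to 30 counts in WT and 1 to 5 in KO. Angpt1, the ligand of TEK, changed by -0.47 ± 0.17 in MEP (adjusted p = 0.087). Its level was 19.9 to 28.2 TPM in WT GMP and 9.92 to 15.1 TPM in KO GMP, with no overlap. In CMP it was 96.3 to 126 TPM in WT and 84.5 to 102 TPM in KO, with overlap.

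Of 12 relatives and partners of the receptors, 0 were called higher and 3 lower of 9 tested in CMP, 1 and 5 of 9 in GMP, 1 and 2 of 8 in MEP and 0 and 1 of 11 in LT-HSC. Il11ra1, which pairs with gp130 to bind interleukin 11, fell by 1.04 ± 0.08 on the log2 scale in CMP (adjusted p = 0.00012), and Ghr, the growth hormone receptor, by 2.07 ± 0.45 (adjusted p = 0.014) on 61 to 147 counts in WT and 9 to 35 in KO. Tie1, the partner of TEK, fell in GMP together with Tek, from 13.2 to 17.7 TPM to 4.31 to 4.70 TPM (-1.64 ± 0.11, adjusted p = 1.7e-05), as did Il27ra (-1.43 ± 0.17, adjusted p = 0.00030). Csf3r, the receptor for granulocyte colony-stimulating factor, rose in GMP from 101 to 121 TPM to 161 to 205 TPM (0.81 ± 0.11, adjusted p = 0.00076) and was the gene called lower in LT-HSC (-2.10 ± 0.29, adjusted p = 0.042). In MEP Lifr was called higher (1.08 ± 0.38, adjusted p = 0.080), on 6 to 15 counts in WT and 18 to 27 in KO. Its ranges overlapped in TPM, at 0.0712 to 0.0732 in WT and 0.0605 to 0.142 in KO. Il27ra (-1.19 ± 0.30, adjusted p = 0.024) and Pdgfrb (-1.21 ± 0.42, adjusted p = 0.077) were called lower in MEP. Pdgfrb also overlapped in TPM, at 0.538 to 1.82 in WT and 0.386 to 0.678 in KO.

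Of the JAK kinases and STATs, 0 of 7 were called in CMP and 4 of 7 in MEP. In GMP Stat3 rose by 0.42 ± 0.07 (adjusted p = 0.0024). In MEP, where Epor and Il6st rose, Jak2, the kinase of EPOR, rose by 0.37 ± 0.06 (adjusted p = 0.0029) and Stat3 by 0.49 ± 0.09 (adjusted p = 0.0056), while Stat5a changed by -0.35 ± 0.08 (adjusted p = 0.015) and Stat5b by -0.21 ± 0.06 (adjusted p = 0.033).

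Of 18 adaptors and kinases that act below KIT, FLT3 and TEK, 4 were called higher and 7 lower in CMP. In GMP 7 were called higher and 4 lower, in MEP 4 higher and 6 lower, and in LT-HSC 0. The SRC family kinase gene Fyn changed by -0.89 ± 0.07 in CMP (adjusted p = 7.1e-05) and by -2.39 ± 0.15 in GMP (adjusted p = 1.1e-05), and the adaptor gene Dok2 by -0.88 ± 0.12 (adjusted p = 0.0018) and -1.69 ± 0.15 (adjusted p = 7.6e-05). The related Dok1 went the other way, at 0.46 ± 0.06 (adjusted p = 0.0016) and 0.59 ± 0.06 (adjusted p = 0.00019). Pik3r1, the regulatory subunit of PI 3-kinase, rose in CMP (0.43 ± 0.06, adjusted p = 0.0019) and MEP (0.34 ± 0.05, adjusted p = 0.0018), and Fes rose in GMP (0.70 ± 0.07, adjusted p = 8.9e-05). In MEP the adaptor gene Gab1 rose by 0.83 ± 0.10 (adjusted p = 0.00095), while Pik3cd, a catalytic subunit of PI 3-kinase, changed by -1.39 ± 0.09 (adjusted p = 4.9e-05) and Btk by -0.48 ± 0.05 (adjusted p = 0.00032).

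Of 13 negative regulators and sheddases, 4 were called higher and 0 lower of 12 tested in CMP, 4 and 1 of 12 in GMP and 4 and 1 of 11 in MEP, and 0 in LT-HSC. These are 33.3%, 41.7% and 45.5% of the list called in CMP, GMP and MEP, against 23.4%, 33.9% and 29.4% of all genes. Adam10, a protease that cuts receptors from the cell surface, rose by 0.54 ± 0.06 in CMP (adjusted p = 0.00056), 0.54 ± 0.07 in GMP (adjusted p = 0.00037) and 0.67 ± 0.07 in MEP (adjusted p = 0.00036). Ptpn6, the phosphatase SHP-1, which dampens KIT and EPOR signaling, rose in GMP (0.65 ± 0.05, adjusted p = 4.0e-05) and fell in MEP (-0.59 ± 0.09, adjusted p = 0.0032). The ubiquitin ligase gene Cbl rose in MEP (0.44 ± 0.07, adjusted p = 0.0040), and Cblb fell in GMP (-0.61 ± 0.08, adjusted p = 0.00050).

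Over the 18 precursor libraries, which share mice and populations, the genes whose log2(CPM + 1) ran most like each receptor were found among 12927 genes, as a description. They were Klf1, the erythroid transcription factor, Ermap and Add2 for Epor (Pearson r of 0.999, 0.998 and 0.998), Tlr2, Cd79b and Adam15 for Il6ra (0.995, 0.994 and 0.993), Arhgap32, Tpd52 and 1700025G04Rik for Il6st (0.986, 0.984 and 0.983), H2-Ob, Rnf122 and Mcoln2 for Flt3 (0.987, 0.980 and 0.980), Vash1, Prkg1 and Cadps2 for Tek (0.981, 0.979 and 0.979) and 1700123M08Rik, Zfp783 and Rwdd3 for Kit (0.864, 0.859 and 0.824). Among the receptors, Il6ra and Il6st ran together (r = 0.90, 18 libraries) and Epor ran against Il6ra (r = -0.85). No correlation was taken within a population.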

How the data were processed

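Bulk RNA-seq of 22 libraries was analyzed. The authors quantified 100 bp paired-end HiSeq 4000 reads with kallisto 0.43.1 against Ensembl 84 transcripts (GRCm38/mm10) and deposited, for each library, estimated counts and TPM per transcript, with transcript lengths. TPM, deposited as such by the authors, is a level per effective length, scaled to the same total in each library.

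Transcripts were paired with genes through GENCODE vM21 (114200 of 115088, 99.2%), and estimated counts and TPM were summed per gene. Counts were rounded, filtered with filterByExpr, normalized with TMM and tested with the quasi-likelihood test of edgeR 4.0.16 in R 4.3.3. Adjusted p-values are Benjamini-Hochberg values over all genes tested, and genes were called under 0.1. KO was compared with WT in each population. Population differences and differences in KO effect were tested across the 18 precursor libraries together, with the mouse number in the titles as a block. Libraries with the same number come from 1 mouse, and their deviations from the group means correlated at a median r of 0.24 over 18 pairs, against -0.09 over 36 pairs of other mice. Deviations cancel out within a group, so pairs of other mice tend to be negative wherever pairs of the same mouse are positive. The -0.09 is thus no independent baseline. Standard errors are the log2 change over the root of F. The scripts were tested on simulated data.

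The 6 genes and the gene lists were chosen with earlier results of these data known. Named genes were the 6 receptors, Arid1a, up to 2 called genes per pathway list, comparison and direction with the smallest adjusted p, the 3 genes nearest each receptor by Pearson r of log2(CPM + 1) at a mean of at least 1 CPM, and markers that are the highest of their list. Cdh5 was named after its values were seen. A result of the JAK and STAT list is not reported here.

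The alternatives took size factors by median of ratios, no filter, an offset for transcript length, DESeq2 1.42.0, a replicate block, all 18 libraries in 1 fit, and each library or mouse left out. Libraries of the same group differed beyond counting noise, so each counted as 1 sample. Depth was 40804031 to 65930737 estimated counts a library, and the log2 fold change of a well-measured gene had a median standard error of 0.39 in LT-HSC and 0.088, 0.088 and 0.082 in CMP, GMP and MEP.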

Additional observations from a re-analysis of the deposited data

Results flagged for a closer look

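The effect of KO on a receptor gene differed between precursor populations in 7 cases by the interaction test of the report. For Epor, the KO effect in GMP less that in CMP was -0.88, and in MEP less that in CMP -0.82. For Tek, it was -1.26 in GMP less CMP and 2.06 in MEP less GMP. For Il6ra, it was 0.90 in GMP less CMP. For Il6st, it was 1.57 in MEP less CMP and 1.69 in MEP less GMP. Each kept its call with each mouse left out in turn, and Tek in GMP less CMP lost it under the offset for transcript length (-0.62).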

How the results depend on the processing

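The number of the 6 receptor genes called moved by more than 1.5 times in few settings. In MEP less CMP it was 4 in place of 2 without the filter and with DESeq2, since Tek (0.80 and 0.81) and Il6ra (0.85 and 0.86) passed, and 2 to 4 with a mouse left out, with 4 without mouse 300. With a library left out it was 1 to 3 in GMP, 4 to 5 in CMP and 2 to 3 in MEP. In LT-HSC such a fit leaves 1 library in a group, so its calls are not given. The log2 fold change of Il6st in LT-HSC turned to -0.078 with the length offset. Calls were also gained by Flt3 in GMP less CMP without the filter (-1.09) and by Epor in GMP with all 18 libraries in 1 fit (0.37). Size factors by median of ratios changed no call of the 6 genes.

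The replicate block from the column pairs of the study's tables gave 5 called genes in CMP in place of 4, with Il6st gained (-0.23, adjusted p = 0.082 by edgeR), and the same counts in LT-HSC, GMP and MEP. GEO's labels do not give these pairs. Paired libraries correlated at r of 0.22 to 0.44 in CMP and GMP, while 1 pair in MEP gave -0.093. Over all genes the block moved the calls in LT-HSC from 18 to 115, and they were 286 without the filter and 77 higher and 127 lower with DESeq2. Without a mouse block the population comparisons called the same number of the 6 genes.

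With each library left out, uncalled values that changed sign ranged in LT-HSC from -0.20 to 0.14 for Kit, -0.21 to 1.15 for Flt3, -0.25 to 1.16 for Epor and -0.37 to 0.48 for Il6st, in GMP from -0.078 to 0.020 for Kit and -0.41 to 0.073 for Flt3, and in MEP from -0.26 to 0.024 for Kit, -0.38 to 0.69 for Flt3 and -0.67 to 0.12 for Tek. With each mouse left out, Kit ranged from -0.078 to 0.052 in MEP against CMP. In GMP less CMP Il6st ranged from -0.28 to 0.061. In MEP less CMP Kit ranged from -0.033 to 0.13. In MEP less GMP the ranges were -0.19 to 0.063 for Kit, -0.18 to 1.04 for Flt3, -0.070 to 0.21 for Epor and -0.39 to 0.37 for Il6ra.

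By CPM over all 22 libraries in place of TPM, the rank of 2 to 4 groups changed for each gene but Flt3. Of the 3 nearest genes by Spearman's rho, 1 was kept for Kit and 0 for the other receptors. LT-HSC had 2 libraries a group and the widest standard errors.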
